A study of Homo sapiens with 6 samples.

Results

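The TRIM genes are a family of RING-type ubiquitin ligases, and their members were taken as every row of the deposited protein-coding gene table whose symbol starts with TRIM followed by a digit. This gave 77 of 19755 rows. Their levels came from RNA-seq of 6 libraries, 3 labelled control and 3 labelled as exposed to lipopolysaccharide (LPS, a glycolipid of the Gram-negative outer membrane) at 1000 ng/ml for 12 h. All 6 are labelled EA.hy926, an established line made by fusing umbilical vein endothelial cells with a lung carcinoma line, and also umbilical vein endothelial cells, so which cells were used cannot be told from the labels. Controls are labelled wild type and also carry 12 h, and no agent is named for them beyond the shared treatment text. That text reads Sepsis for all 6 samples, controls included. The labels do not say whether replicates were separate cultures, and the p-values rest on the variation among libraries alone, part or all of which may be technical. Values are FPKM (fragments scaled to transcript length and to the mapped fragments of the library), and the depth behind them is unknown.

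TRIM proteins share an N-terminal module of a RING finger, 1 or more B-boxes and a coiled coil, which pairs with an E2 enzyme to attach ubiquitin to substrates. The part after the coiled coil differs between members and picks the substrate, most often a PRY-SPRY domain. The family is known for antiviral restriction and for tuning the sensors of foreign nucleic acid, and several members are induced by interferon. Others, such as the corepressor TRIM28, act in the nucleus on chromatin.

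Summed FPKM of protein-coding genes lay between 256047 and 264878 per library. Over all annotated genes, noncoding ones included, the sum was 427920 in control 3 and 467380 to 483345 in the other libraries. The endothelial label was checked on 12 marker genes, of which 11 had a mean of at least 1 FPKM. They summed to between 386 and 508 FPKM in controls and between 473 and 605 FPKM with LPS. Of 10 leukocyte markers 1 (CD68) reached 1 FPKM, 4 were listed at 0 in every library, PTPRC among them, and their sum was 4.24 to 8.03 FPKM in controls and 4.75 to 6.93 FPKM with LPS.

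Promoter sequence is shown for the interferon-inducible members, because the interferon-stimulated response element is the DNA motif through which interferon induces such genes. A list of 10 members widely described as interferon-inducible was used (TRIM5, TRIM14, TRIM21, TRIM22, TRIM25, TRIM26, TRIM34, TRIM38, TRIM56 and TRIM69). RefSeq start sites on GRCh38.p14 were searched from 250 bases before to 50 bases after the start for GAAANNGAAA, the core of that element, on both strands. The motif was in a window of 6 of the 9 listed genes with an entry (TRIM22 has none) and of 3 of the 21 other tested TRIM genes with an entry (TRIM2, TRIM16 and TRIM44). It was in 3.57% of all 35116 windows and in at least 1 window of 3.99% of 9563 tested genes with an entry. The 30 bases around each match are printed 5′ to 3′ on the gene's own strand, with the match in capitals. A match is a description of the letters and not a shown binding site.
TRIM14: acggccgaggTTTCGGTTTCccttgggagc
TRIM21: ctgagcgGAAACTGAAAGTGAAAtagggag
TRIM5: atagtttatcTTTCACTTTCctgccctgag
TRIM26: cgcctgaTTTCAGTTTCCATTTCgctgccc
TRIM34: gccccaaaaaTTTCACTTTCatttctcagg
TRIM69: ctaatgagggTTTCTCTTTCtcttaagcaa
TRIM14 lies at chr9:98119229-98119258 (minus strand), TRIM21 at chr11:4393663-4393692 (minus), TRIM5 at chr11:5685082-5685111 (minus), TRIM26 at chr6:30213578-30213607 (minus), TRIM34 at chr11:5624901-5624930 (plus) and TRIM69 at chr15:44736456-44736485 (plus). TRIM21 and TRIM26 carry 2 overlapping matches each, and the other 4 carry 1. TRIM5 and TRIM34 share the identical 10-base match.

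Of the 77 TRIM genes, 40 averaged 0.5 FPKM or more and were tested (TRIM58, at 0.554 FPKM, just inside and TRIM45, at 0.491 FPKM, just outside), 14 were detected below that level and 23 were listed at 0 everywhere. The 23 include a block of 12 closely related genes on chromosome 11 (the TRIM48, TRIM49, TRIM51, TRIM64 and TRIM77 copies), where reads shared between copies could be lost in counting. The muscle ligases TRIM54, TRIM55 and TRIM63 and their relative TRIM42 all stayed below the level for testing, as did the stem cell factor TRIM71. In control 1, 2 and 3 the summed level of all TRIM genes was 275, 272 and 290 FPKM, and in LPS 1, 2 and 3 it was 310, 294 and 298 FPKM. TRIM28 alone supplied between 20.9% and 26.7% of that sum.

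TRIM28, the corepressor that KRAB zinc finger proteins recruit to silence chromatin, was the most abundant member in every library. TRIM22, an interferon-induced antiviral ligase, came next, and the 2 genes did not overlap with each other or with any other member. TRIM25, which acts with the RNA sensor RIG-I and with the antiviral protein ZAP, stood at 14.04 ± 2.73 FPKM in controls and 14.5 ± 0.328 FPKM with LPS (SD, n = 3). It overlapped with TRIM8 (13.2 ± 5.02 and 13.7 ± 5.37 FPKM), a regulator of inflammatory signalling, and with TRIM27 (11.9 ± 1.79 and 13.8 ± 2.71 FPKM), the RET finger protein. These 5 genes had means of at least 10 FPKM, 32 had means from 1 to under 10 FPKM and 3 (TRIM6, TRIM58 and TRIM61) lay under 1 FPKM. The median over the 40 was 4.38 FPKM, beside 6.44 FPKM over all 12068 tested genes.

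**Figure D1:**
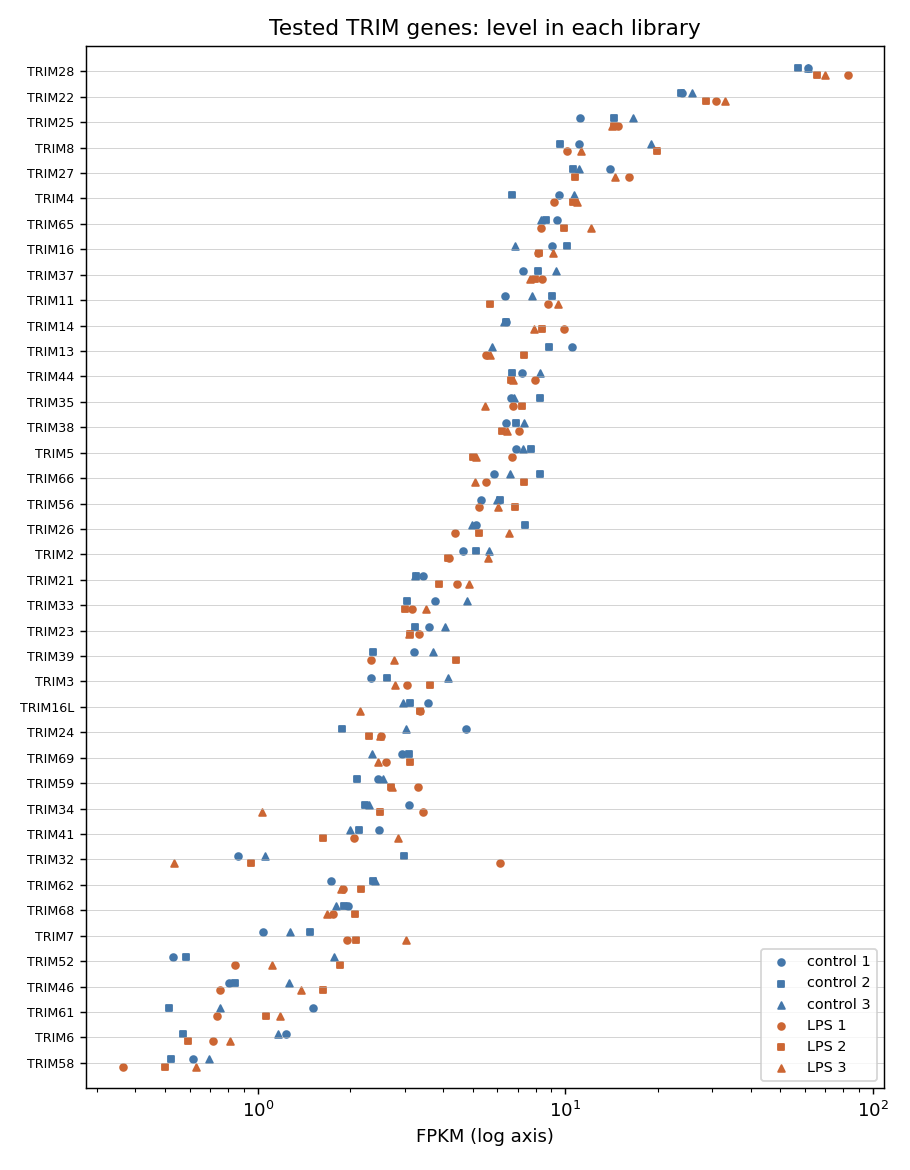
FPKM of the 40 tested TRIM genes in each of the 6 libraries on a log axis, ordered by mean (blue: control, orange: LPS; the marker shape gives the replicate number). TRIM28 and TRIM22 stand above all others, and TRIM32 has the widest scatter, with LPS 1 at 6.15 FPKM and LPS 3 at 0.536 FPKM.

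The comparison of LPS with control asks which members differed after exposure. TRIM14, TRIM21, TRIM22, TRIM7 and TRIM28 had higher levels and TRIM5 lower levels in all 3 LPS libraries than in any control library, each by less than 2-fold. None of the 40 TRIM genes passed the adjustment over all genes (limma on log2(FPKM + 0.5), Benjamini-Hochberg adjusted p under 0.05), which 7 of 12068 genes (0.058%) did. At an unadjusted p under 0.05 there were 6 TRIM genes (15%) beside 10.4% of all tested genes, 5 of them higher (5.13% of all genes) and 1 lower (5.26%). Groups did not overlap in 7 of the 40 (17.5%), those 6 and TRIM59, beside 17.4% of all genes, a share at the background. Less RNA per cell and fewer cells of a type cannot be told apart in such bulk libraries. Log2 changes ran from −0.38 (TRIM13) to 0.68 (TRIM7), with 19 positive and 21 negative. Their median was −0.02 beside −0.01 over all tested genes, and their median size without sign was 0.15 beside 0.15. The lowest limma adjusted p in the family was 0.322. The count of 6 was 3 without control 1 and 3 without LPS 3. It was 5 without control 2 and 5 without control 3, but only 3 of the 6 remained in each. The rest there were TRIM24 and TRIM6 without control 2, and TRIM13 and TRIM52 without control 3. It was 4 without LPS 1 and 5 without LPS 2, all among the 6. TRIM14, TRIM22 and TRIM7 had an unadjusted limma p under 0.05 in all 6 fits that left out 1 library. TRIM21, TRIM5 and TRIM28 were so in 1 of 6 each.

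**Figure D2:**
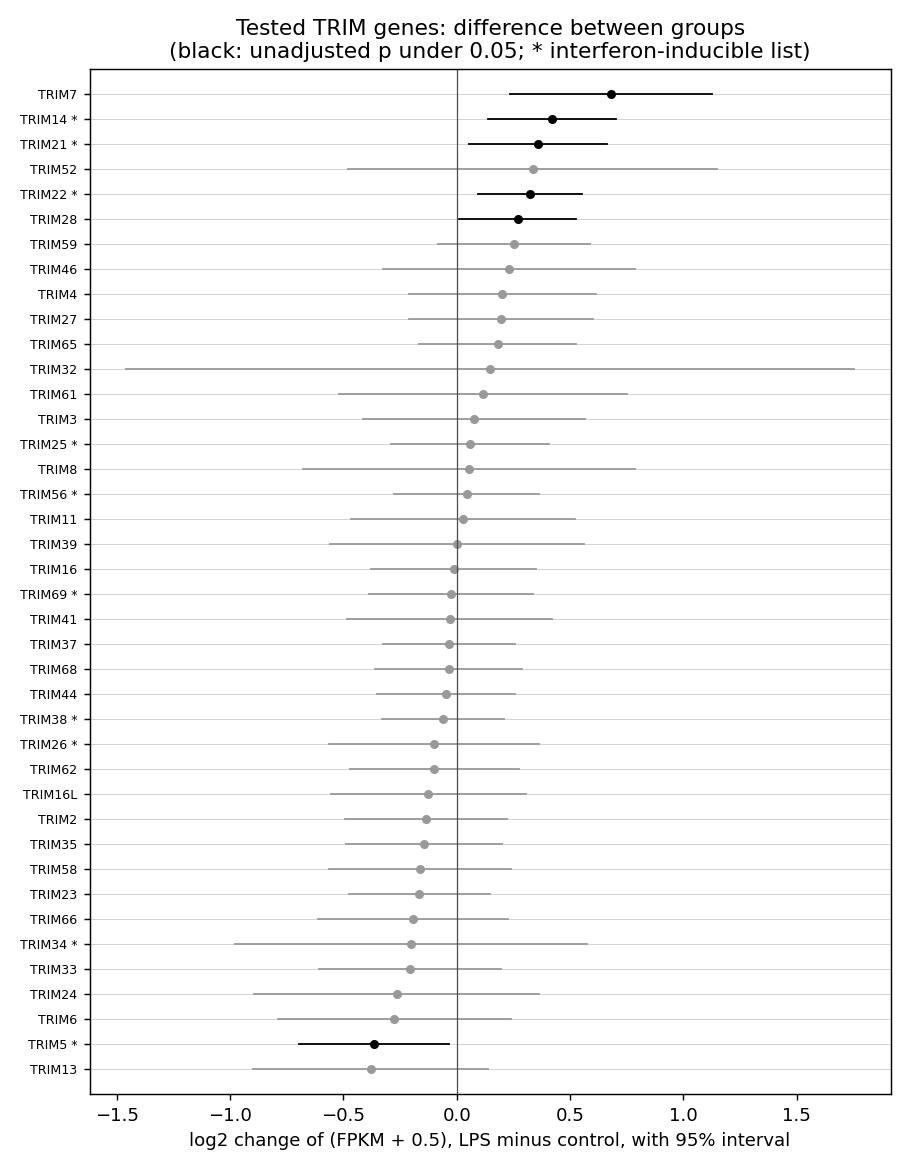
Log2 change of (FPKM + 0.5), LPS minus control, with its 95% interval from limma for the 40 tested TRIM genes (black: unadjusted p under 0.05; asterisk: interferon-inducible list). The 6 black intervals exclude 0, from TRIM7 at 0.68 to TRIM5 at −0.37, and the interval of TRIM32 is the widest, from −1.46 to 1.75.

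Among the 10 interferon-inducible members, TRIM14 is an adaptor without a RING finger that joins the signalling platform of MAVS on mitochondria. Its gene value was 6.40, 6.43 and 6.32 FPKM in controls 1 to 3 and 9.93, 8.42 and 7.92 FPKM in LPS 1 to 3. The controls had an SD of 0.0537 FPKM and every LPS library lay above them. The log2 change was 0.42 (SE 0.12, 95% interval 0.14 to 0.70, limma adjusted p = 0.331, unadjusted p = 0.0093). The gene spans chromosome 9 positions 98045737 to 98119222 in the deposited table (GRCh38), minus strand, and overlaps NANS on the other strand.

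TRIM22 was at 23.9, 23.7 and 25.9 FPKM in controls and 30.96, 28.6 and 33.0 FPKM with LPS. All LPS values exceeded all control values, with the narrowest interval of the family members at unadjusted p under 0.05 (log2 change 0.32, SE 0.10, 95% interval 0.09 to 0.55, limma adjusted p = 0.339). TRIM21, the cytosolic antibody receptor that sends antibody-coated particles to the proteasome, was at 3.45, 3.27 and 3.23 FPKM and 4.45, 3.89 and 4.87 FPKM. These groups again did not overlap (log2 change 0.36, SE 0.13, limma adjusted p = 0.417). TRIM22 lies at chromosome 11 positions 5689697 to 5737089 on the plus strand and TRIM21 at chromosome 11 positions 4384897 to 4393702 on the minus strand.

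TRIM5, which recognises retroviral capsids, went the other way. It was at 6.91, 7.74 and 7.30 FPKM in controls and 6.70, 4.99 and 5.11 FPKM with LPS. LPS 1 lay just under the lowest control and the other 2 libraries well under it (log2 change −0.37, SE 0.14, 95% interval −0.70 to −0.04, limma adjusted p = 0.444). Its row spans chromosome 11 positions 5571247 to 5938619 on the minus strand and overlaps TRIM6, TRIM34 and TRIM22, which lie on the plus strand. A strand setting for the counting is not given in the sources used here. Shared reads among these neighbours cannot be told apart.

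The remaining 6 listed members overlapped between groups, 2 with a positive and 4 with a negative log2 change. TRIM25 had a log2 change of 0.06 (95% interval −0.29 to 0.41) and TRIM56, an interferon-inducible ligase acting in cytosolic DNA sensing, of 0.04 (−0.28 to 0.36), from 5.81 ± 0.445 and 6.03 ± 0.810 FPKM. The sign of TRIM25 turned without control 1, and that of TRIM56 without control 1, without LPS 2 and with protein-coding transcripts alone. TRIM38, a regulator of innate immune signalling, was at 6.89 ± 0.455 and 6.58 ± 0.450 FPKM without and with LPS and TRIM26 at 5.84 ± 1.37 and 5.39 ± 1.10 FPKM. TRIM69 was at 2.80 ± 0.387 and 2.74 ± 0.346 FPKM. TRIM34, a relative of TRIM5, was at 2.54 ± 0.480 and 2.32 ± 1.21 FPKM, with LPS 3 at 1.03 FPKM as its lowest library, and its sign turned without LPS 3. The signs of TRIM26 and TRIM69 also turned when single libraries were left out. In that same library, LPS 3, the readthrough gene TRIM6-TRIM34 was listed at 1.14 FPKM and in the other 5 at 0.

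The 10 listed genes, all tested, had 5 positive and 5 negative log2 changes and a median of 0.01. The median was −0.05 without control 1 and 0.08 without control 2, −0.03 without LPS 2 and 0.06 without LPS 3. Unadjusted p was under 0.05 for 3 higher and 1 lower member, beside 5.13% higher and 5.26% lower over all tested genes, and 0 passed the limma adjustment. Of 17 tested genes from a list of 20 other interferon-stimulated genes, 16 were positive with a median of 1.21, 13 were higher at unadjusted p under 0.05 (5.13% of all genes) and 2 passed the limma adjustment (MX1 and ISG15). Neither MX1 nor ISG15 passed it without a filter, with the replicate block, with protein-coding sums, or without any 1 of control 1, control 2, control 3, LPS 2 and LPS 3, and MX1 did not with a pseudocount of 1. Among the others of the 13 were BST2, IFI44, IFI6, IFIT1, IFIT3, IRF9, MX2, OAS2, OAS3 and USP18. Relative to the control mean, that list's median was 1.51, 0.94 and 0.86 in LPS 1, 2 and 3, beside 0.07, 0.10 and 0.04 for the interferon-inducible TRIM genes and −0.02, −0.05 and 0.05 for all tested genes. Both lists were chosen with earlier results of these data known, and no test of the difference between them was run. Of the 6 listed TRIM genes with a motif match printed above, TRIM14 and TRIM21 had the higher LPS levels, TRIM5 the lower, and TRIM26, TRIM34 and TRIM69 overlapped between groups. The TRIM69 match lies beyond the end (position 44734000) of TRIM69-207, the transcript that held most of that gene's FPKM. The TRIM34 match lies just before the start (position 5624983) of TRIM34-201. That transcript was at 0.703 ± 0.548 and 0.477 ± 0.320 FPKM without and with LPS, of 2.54 and 2.32 FPKM for the gene. TRIM34-204 and TRIM34-202 start elsewhere, at positions 5619764 and 5632281.

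**Figure D3:**
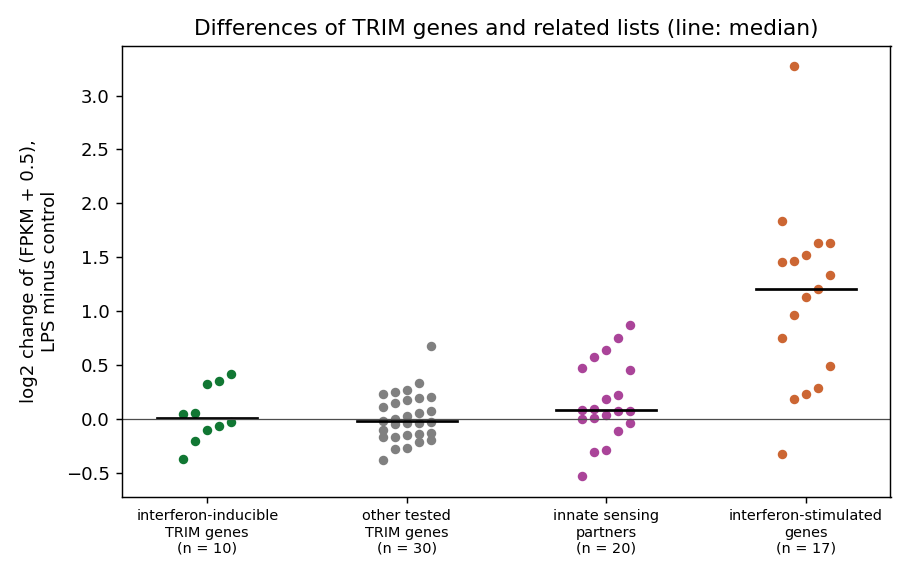
Fitted log2 change of (FPKM + 0.5), LPS minus control, for each tested gene of 4 lists, with a line at the median. The interferon-inducible TRIM genes lie around 0.01 and the interferon-stimulated genes around 1.21, with MX1 highest at 3.27.

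Outside that list, TRIM7, a PRY-SPRY ligase that binds the glycogen primer glycogenin, had the highest log2 change. It was at 1.04, 1.48 and 1.27 FPKM in controls and 1.94, 2.09 and 3.03 FPKM with LPS. No LPS library reached down to the controls (log2 change 0.68, SE 0.19, 95% interval 0.23 to 1.13, limma adjusted p = 0.322). TRIM7 lies at chromosome 5 positions 181193924 to 181205293, minus strand, overlaps the antisense gene AC008443.5, and is near TRIM41 and TRIM52. Those neighbours were at 2.20 ± 0.244 and 2.18 ± 0.622 FPKM (TRIM41) and 0.962 ± 0.703 and 1.27 ± 0.526 FPKM (TRIM52) without and with LPS.

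TRIM28 was at 61.6, 56.9 and 61.4 FPKM in controls and 82.9, 65.6 and 69.7 FPKM with LPS. The groups did not overlap, with LPS 1 highest (log2 change 0.27, SE 0.11, 95% interval 0.01 to 0.53, limma adjusted p = 0.461). It lies at chromosome 19 positions 58544064 to 58550722 on the plus strand. Its partners in heterochromatin, of which the remodelling ATPases CHD4 (29.5 ± 1.12 and 29.9 ± 1.61 FPKM) and CHD3 (29.5 ± 3.78 and 27.3 ± 7.38 FPKM) were the most abundant, gave 0 of 12 tested genes past the limma adjustment and 0 at unadjusted p under 0.05. The other chromatin readers of its class were lower in mean with overlapping groups. TRIM24 was at 3.22 ± 1.447 and 2.44 ± 0.123 FPKM, TRIM33, a partner of SMAD signalling, at 3.87 ± 0.869 and 3.24 ± 0.267 FPKM, and TRIM66 at 6.90 ± 1.23 and 5.98 ± 1.19 FPKM. Most of the TRIM66 value lay in an assembled transcript, described further below.

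**Figure D4:**
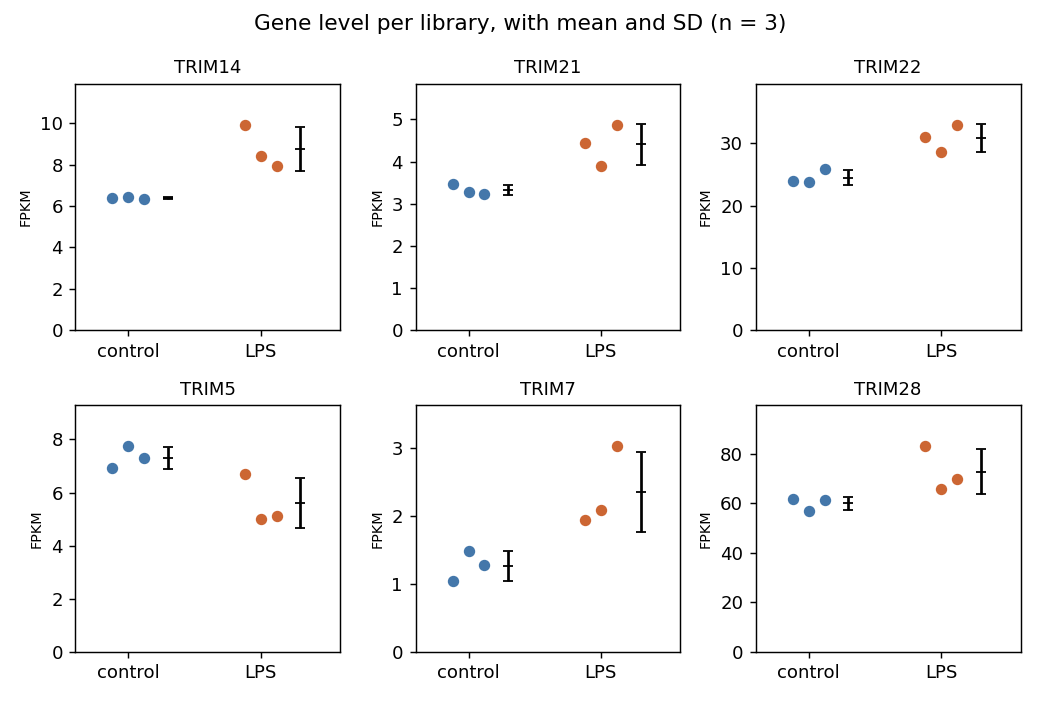
FPKM of the 6 TRIM genes at unadjusted p under 0.05 in each control (blue) and LPS (orange) library, with the group mean and SD (n = 3) in black; axes start at 0. TRIM14, TRIM21, TRIM22, TRIM7 and TRIM28 are higher and TRIM5 is lower in every LPS library than in any control.

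The PRY-SPRY class was a chosen list and not a count of every gene with that domain. TRIM14 and TRIM16 were listed with the members without a RING finger instead, and copies such as TRIM49B and TRIM64B in no class. Of the 30 listed PRY-SPRY genes with a row 20 were tested, with a median log2 change of −0.03. Among these 20, 4 had an unadjusted p under 0.05 (TRIM21, TRIM22, TRIM7 and TRIM5), beside 10.4% of all tested genes. In the same class TRIM4, a ligase for RIG-I, was at 8.96 ± 2.03 and 10.2 ± 0.923 FPKM without and with LPS and TRIM65, a ligase for the RNA sensor MDA5, at 8.77 ± 0.533 and 10.1 ± 1.88 FPKM. Protein-coding transcripts of TRIM4 alone summed to 7.10 ± 2.04 FPKM in controls and 7.12 ± 0.457 FPKM with LPS. The NHL-repeat class, the single-domain class, the class without a C-terminal domain and that of TRIM46 held none of the 6. Of the NHL-repeat ligases, TRIM2 was at 5.13 ± 0.505 and 4.65 ± 0.814 FPKM and TRIM3 at 3.04 ± 0.978 and 3.16 ± 0.426 FPKM, where the sign of TRIM3 turned without control 1 and without LPS 2. TRIM37, whose loss causes Mulibrey nanism, was at 8.24 ± 1.03 and 8.002 ± 0.345 FPKM and turned sign without control 3 and with library weights. TRIM13, anchored in the endoplasmic reticulum, was at 10.5, 8.85 and 5.77 FPKM in controls and 5.51, 7.36 and 5.69 FPKM with LPS, so the 2 groups overlapped through control 3 (log2 change −0.38, SE 0.22). TRIM59 was at 2.37 ± 0.234 and 2.92 ± 0.343 FPKM without overlap between groups (log2 change 0.25, SE 0.14, limma adjusted p = 0.585). TRIM46, a microtubule organiser of axons and the 1 tested member of its class, was at 0.971 ± 0.252 and 1.25 ± 0.453 FPKM. TRIM16, which lacks a RING finger, was at 8.67 ± 1.67 and 8.49 ± 0.554 FPKM, with a change near 0 that took either sign when a library was left out or values were quantile normalized.

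By position, 6 tested genes lie in a group on the short arm of chromosome 11 (TRIM21, TRIM68, TRIM5, TRIM6, TRIM34 and TRIM22) and 4 on the short arm of chromosome 6 (TRIM38, TRIM27, TRIM26 and TRIM39). In the chromosome 11 group 2 log2 changes were positive and 4 negative, with TRIM22 and TRIM21 at one end and TRIM5 at the other. In the chromosome 6 group 2 were positive and 2 negative, and none had an unadjusted p under 0.05 or passed the limma adjustment.

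The deposited gene value equals the sum of the gene's transcripts to within 8e-06 FPKM, noncoding and assembled ones included, so its makeup was read for each member. Transcripts of the protein-coding table supplied a median of 82.3% of the gene value over the 40 tested genes, from 4.71% (TRIM69) to 100%, and under 50% in 6 genes. The value of TRIM69 lay nearly all in TRIM69-207, a processed transcript without coding annotation, at 2.82, 3.03 and 2.09 FPKM in controls and 2.50, 2.96 and 2.34 FPKM with LPS. For TRIM66 an assembled transcript near its 5′ end supplied 5.79 of 6.90 FPKM in the control mean. TRIM66 overlaps the ribosomal protein gene RPL27A on the other strand, which had a mean of 40.8 FPKM. Without a known strand setting, reads of TRIM66 and RPL27A cannot be told apart. With each gene taken as the sum of its protein-coding transcripts, an alternative chosen after seeing the data, 5 of 36 tested TRIM genes had an unadjusted p under 0.05, beside 10.0% of all 11244 genes in that fit, and 0 passed the limma adjustment. These were TRIM14, TRIM21, TRIM22 and TRIM7, higher with LPS, and TRIM66, lower with LPS. The coding sum of TRIM66 was low, at 0.901 ± 0.0624 FPKM in controls and 0.466 ± 0.215 FPKM with LPS. Its groups did not overlap (log2 change −0.56, limma adjusted p = 0.461). Of the tested genes TRIM27 had the largest shift under this sum, with coding transcripts at 8.59, 3.83 and 3.95 FPKM in controls and 12.9, 4.24 and 9.56 FPKM with LPS, overlapping groups and a log2 change of 0.62 in place of 0.20.

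For TRIM28 the transcripts differed in how they compared between groups. Its full-length transcript TRIM28-201 was at 42.3, 47.6 and 46.8 FPKM in controls and 42.7, 40.8 and 46.0 FPKM with LPS, so the 2 groups overlapped. The short transcript TRIM28-207, which starts inside the gene at position 58548294, was at 4.17, 1.28 and 2.71 FPKM in controls and 11.5, 11.7 and 7.23 FPKM with LPS. It had the lowest p among TRIM transcripts (log2 change 1.80, SE 0.40, limma adjusted p = 0.451 over all transcripts, unadjusted p = 0.00511). Retained-intron and other transcripts of the lncRNA table summed to 11.3, 7.61 and 11.5 FPKM in controls and 28.1, 12.9 and 16.0 FPKM with LPS. Protein-coding transcripts together gave 49.8 ± 0.459 and 53.7 ± 1.05 FPKM, a log2 change of 0.11 (unadjusted p = 0.167, limma adjusted p = 0.638) in place of 0.27, still without overlap.

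For TRIM5 the transcripts were assigned unevenly between libraries. TRIM5-202, a coding form, was at 5.00 FPKM in control 1 and at 0.306 to 1.22 FPKM in the other 5 libraries. TRIM5-206, annotated as subject to nonsense-mediated decay, was listed at 0 in control 1 and at 4.44 and 4.02 FPKM in the other controls, and at 3.48, 1.98 and 0.966 FPKM in LPS 1, 2 and 3. As the sum of protein-coding transcripts TRIM5 was at 3.58 ± 2.36 and 2.75 ± 0.570 FPKM, with overlapping groups and a log2 change of −0.19 (limma adjusted p = 0.895).

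For TRIM14, TRIM22, TRIM21 and TRIM7 the sum of the coding transcripts kept the groups apart, though single transcripts did not all do so. TRIM14-201, the coding form, was at 3.53, 3.41 and 3.66 FPKM in controls and 6.92, 4.37 and 5.08 FPKM with LPS (log2 change 0.54, SE 0.20, limma adjusted p = 0.741). The rest of the gene value was mainly TRIM14-OT1, an assembled transcript beyond the coding part, at 2.67, 2.91 and 2.25 FPKM and 2.91, 4.005 and 2.76 FPKM, where the 2 groups overlapped. The principal TRIM22 transcript, TRIM22-201, was at 16.7, 16.6 and 16.2 FPKM and 23.4, 19.2 and 16.9 FPKM, without overlap but with LPS 3 close to the controls. TRIM21-201 was at 3.02, 2.78 and 2.42 FPKM and 3.41, 3.50 and 3.07 FPKM, again without overlap. In TRIM7 the short form TRIM7-202 stood at 0.180, 0.541 and 0.148 FPKM and 0.947, 1.21 and 0.839 FPKM, whereas the longer TRIM7-201 overlapped between groups at 0.779, 0.908 and 0.806 FPKM and 0.891, 0.711 and 1.66 FPKM.

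Over the whole family 60 of 280 protein-coding transcripts were tested, from 33 genes, and 0 passed the limma adjustment, beside 0.126% of all 20563 tested transcripts. At an unadjusted p under 0.05 there were 4 (6.67%), namely TRIM28-207, TRIM7-202, TRIM14-201 and TRIM13-204, beside 6.44% of all transcripts, a share at the background. All 4 were higher with LPS. TRIM13-204 was low, at 0.396, 0.303 and 0.00126 FPKM in controls and 1.44, 0.920 and 0.902 FPKM with LPS (log2 change 1.14, limma adjusted p = 0.691). The TRIM13 gene value had a log2 change of the other sign (−0.38).

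**Figure D5:**
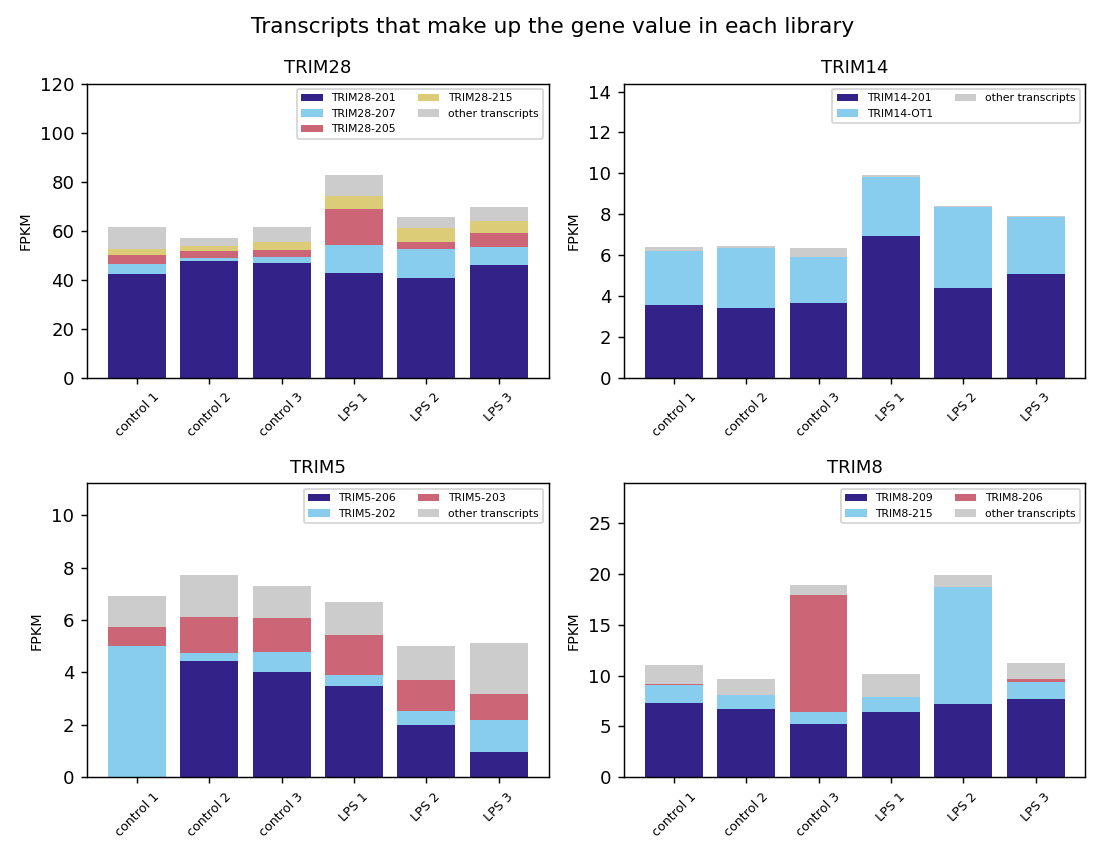
Stacked FPKM of the transcripts that make up the gene value of TRIM28, TRIM14, TRIM5 and TRIM8 in each library; the grey part is all remaining transcripts. In TRIM28 the full-length form TRIM28-201 overlaps between groups, while TRIM28-207 is higher in each LPS library, and TRIM8 has 1 tall library in each group, made up by TRIM8-206 in control 3 and by TRIM8-215 in LPS 2.

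TRIM8 showed 1 high library in each group. It stood at 11.04, 9.61 and 18.9 FPKM in controls and 10.1, 19.9 and 11.2 FPKM with LPS. The excess was TRIM8-206, a nonsense-mediated decay form, in control 3 (11.6 FPKM, at most 0.376 FPKM elsewhere) and TRIM8-215, a retained intron, in LPS 2 (11.5 FPKM, at most 1.78 FPKM elsewhere). The full-length TRIM8-209 was at 7.31, 6.70 and 5.22 FPKM and 6.40, 7.25 and 7.65 FPKM, with overlap, and the sign of the gene's change turned without control 1, without control 2 and without LPS 2.

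Family members that carry other symbols were read from a separate list. Of 11 such genes 5 were tested, 4 with a positive log2 change, and 0 passed the limma adjustment or had an unadjusted p under 0.05. PML, the organiser of nuclear bodies, was at 16.3 ± 2.82 and 17.2 ± 2.63 FPKM without and with LPS and RNF207 at 6.14 ± 0.853 and 6.72 ± 0.816 FPKM.

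The enzymes that feed TRIM ligases gave no call. Of 17 ubiquitin genes, E1 and E2 enzymes, all tested, 0 passed the limma adjustment and 0 had an unadjusted p under 0.05. The E1 enzyme UBA1 was at 84.4 ± 3.88 FPKM in controls and 88.1 ± 0.671 FPKM with LPS.

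Sensors and adaptors on which TRIM ligases act had 20 tested genes, 15 with a positive log2 change, a median of 0.08, 0 past the limma adjustment and 4 higher at unadjusted p under 0.05, beside 5.13% of all tested genes. MAVS, the mitochondrial adaptor of RNA sensing, was at 7.46, 7.66 and 5.53 FPKM in controls and 11.9, 11.6 and 12.0 FPKM with LPS (log2 change 0.75, SE 0.14, limma adjusted p = 0.173). IRF7, a transcription factor of the interferon response, was at 3.20 ± 0.530 and 6.30 ± 0.943 FPKM without and with LPS. DDX58, which encodes RIG-I, was at 4.58 ± 0.357 and 7.18 ± 1.78 FPKM and TICAM1, the adaptor TRIF, at 6.33 ± 0.705 and 8.82 ± 0.442 FPKM. These 4 of 20 genes did not overlap between groups, beside 17.4% of all tested genes, a share near the background.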

How the data were processed

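All values start from FPKM tables that the authors deposited. The submitters' processing notes list HISAT2 and StringTie, with no version, and mouse build mm9. The deposited rows carry human Ensembl identifiers, and 18 of the 40 tested TRIM genes have the start and end of GENCODE 29 (GRCh38), so coordinates are taken as GRCh38. Strand and transcript types come from GENCODE 29, by identifier. Groups follow the sample titles.

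Rows averaging 0.5 FPKM or more entered 1 fit per whole table. The scale was log2(FPKM + 0.5) and the tool limma 3.58.1 under R 4.3.3 (group term, eBayes with trend, two-sided, Benjamini-Hochberg over the table), after tests on simulated data. Fold changes on this scale understate changes of low genes. Depth is unknown, so no counting interval is given. Named genes are those past the threshold or at unadjusted p under 0.05, the interferon-inducible list, the 6 most abundant, and the 2 most abundant per structural class. Named transcripts are those at unadjusted p under 0.01 and the most abundant of each gene at unadjusted p under 0.05. Other lists give members at unadjusted p under 0.05, or else the 2 most abundant. Some members of these lists are not reported here. Other genes were named after their values were seen. The members and lists were chosen with earlier results of these data known. Alternatives were other pseudocounts (0.1 and 1), filters, scalings, a replicate block, library weights, leaving out each library, and protein-coding transcript sums (chosen after seeing the data).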

Additional observations from a re-analysis of the deposited data

How the results depend on the processing

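In each alternative 0 TRIM genes and 0 TRIM transcripts passed the limma adjustment, with 3 to 6 TRIM genes at an unadjusted p under 0.05. That count was 3 to 5 when single libraries were left out. Without control 2 and without control 3 it was 5, of which only 3 were among the 6 of the main fit. Genes past the threshold numbered 0 without a filter and 2 with protein-coding transcript sums, against 7, and 0 to 8 when single libraries were left out. Transcripts past it numbered 15 without a filter, against 26, and 28 to 53 when single libraries were left out. The replicate block gave 0 genes and 0 transcripts past the threshold. Same-numbered control and LPS libraries had deviations correlated at 0.017, 0.105 and 0.060. The other pairs lay between −0.084 and 0.023, all negative except control 1 with LPS 3 (0.023). The labels do not say that the numbers mark a shared batch, so they were not taken as pairs in the main fit. Whether such a batch exists cannot be told from these values. The median of the interferon-inducible TRIM genes was −0.0347 with protein-coding sums and −0.0461 to 0.0760 when single libraries were left out. TRIM16 was 0.0020 with quantile normalization, TRIM37 0.0060 with library weights and TRIM56 −0.0347 with protein-coding sums. When single libraries were left out, log2 changes that turned sign ranged from −0.0926 to 0.1835 (TRIM25), −0.2371 to 0.3364 (TRIM8), −0.1655 to 0.1011 (TRIM16), −0.1150 to 0.0538 (TRIM37), −0.0451 to 0.1349 (TRIM56), −0.2387 to 0.0715 (TRIM26), −0.0698 to 0.2901 (TRIM3), −0.1252 to 0.0395 (TRIM69) and −0.4942 to 0.1863 (TRIM34). The cause was not tested. The other 13 of 22 named genes kept their sign in all alternatives. With FPKM alone, what depth limits cannot be stated.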

Other observations

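TRIM32, mutated in a limb-girdle muscular dystrophy, had the largest SD relative to its mean among the 40 tested members, in the LPS group. It was at 0.860, 2.98 and 1.05 FPKM in controls and 6.15, 0.950 and 0.536 FPKM with LPS, so the highest and the lowest value both came from LPS libraries. Its transcript TRIM32-203 was at 3.23 FPKM in LPS 1 and at most 0.398 FPKM elsewhere. It lies within ASTN2 on the other strand.

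In TRIM24 the transcript TRIM24-202 was at 4.63 FPKM in control 1 and listed at 0 in the other 5 libraries, while TRIM24-201 was at 0.119 FPKM in control 1 and at 1.86 to 2.48 FPKM in the others. TRIM54 was listed at 0.782 FPKM in LPS 3, at 0.0137 FPKM in LPS 1 and at 0 in the other 4 libraries. Among 35 further annotated genes with TRIM or TRIML symbols, 31 were listed at 0 in all libraries, and TRIM52-AS1 had the highest mean, at 1.85, 0.430 and 1.37 FPKM in controls and 1.30, 1.37 and 0.931 FPKM with LPS.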
